A study of Mus musculus with 6 samples.

Results

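The 31 glycolysis and hypoxia response genes described here were taken by symbol, under a rule that uses no measured value, from 47360 gene symbols in the expression table of mouse dental epithelial organoids (DEOs). They comprise 14 glycolytic enzymes, 6 genes of glucose and lactate transport, lactate formation and flux regulation, and 11 further genes of the response to low oxygen. Each is listed with 1 entry. All 31 reached a level of 1 FPKM (fragments scaled to transcript length and to the mapped fragments of the library) in each of the 4 libraries analysed.

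DEOs were grown for 14 days in Matrigel from adult dental epithelial stem cells (aDESCs) of the incisor apical bud of a 9-week-old female wild-type C57BL/6J mouse. All media held Wnt3a-conditioned medium at 50%, R-spondin1-conditioned medium at 5%, EGF at 100 µg per ml, N-acetylcysteine at 1 mM, the kinase inhibitor Y27632 at 10 µM and Noggin at 200 µg per ml. Nothing else was added in +N. In +ND, the γ-secretase inhibitor dibenzazepine (DBZ), which stops Notch receptors from being cleaved into their active form, was present at 10 µM. FGF10 was added at 100 µg per ml in +NF, and FGF10 and DBZ at the same doses were added together in +NFD. The DBZ dose is that of the sample labels, and the methods of the study give the same figure in mmol per litre. The 2 media with Jagged1, +NJ and +NFJ, were not analysed here. Each medium has 1 library, so every comparison is between single libraries and carries neither a replicate error nor a p-value. In a bulk library, fewer cells of a type and less RNA per cell cannot be told apart.

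Glycolysis splits glucose into pyruvate, and lactate dehydrogenase turns pyruvate into lactate, which restores the cofactor that the pathway needs. Under low oxygen, prolyl hydroxylases no longer mark the α-subunits of hypoxia-inducible factor (HIF) for destruction, and HIF dimers bind short DNA motifs near many glycolytic genes and raise their transcription. Genes of glucose uptake, glycolytic enzymes, angiogenic factors, and the prolyl hydroxylases themselves are classical HIF targets, and the same glycolytic genes are also driven by growth factor signalling.

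The HIF motif is short, and its core was searched on both strands as ACGTG or GCGTG in the 250 bases before each RefSeq start site on GRCm38.p6. RefSeq start sites were matched for 30 of the 31 genes, with Ndrg1 unmatched. The windows of 4 genes are shown. Slc2a1 and Pfkfb4 had the widest differences between media, Egln3 was higher with DBZ and lower with FGF10 on both backgrounds as Slc2a1 was, and Ldha is the most abundant of the 31 genes. Capitals mark each motif or its reverse complement, and the strand shown is that of the gene. The windows lie at chr4:119108495-119108744 (plus strand, Slc2a1), chr9:108991652-108991901 (plus strand, Pfkfb4), chr12:54203875-54204124 (minus strand, Egln3) and chr7:46845554-46845803 (plus strand, Ldha).
Slc2a1: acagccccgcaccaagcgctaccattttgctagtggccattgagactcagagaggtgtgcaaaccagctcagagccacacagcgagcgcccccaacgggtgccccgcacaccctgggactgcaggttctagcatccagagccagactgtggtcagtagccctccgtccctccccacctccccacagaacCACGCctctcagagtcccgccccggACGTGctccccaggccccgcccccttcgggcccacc
Pfkfb4: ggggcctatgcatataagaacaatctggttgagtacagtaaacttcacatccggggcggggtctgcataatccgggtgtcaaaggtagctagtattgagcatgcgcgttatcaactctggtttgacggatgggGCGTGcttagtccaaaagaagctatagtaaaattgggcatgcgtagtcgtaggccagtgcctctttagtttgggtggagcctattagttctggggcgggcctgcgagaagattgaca
Egln3: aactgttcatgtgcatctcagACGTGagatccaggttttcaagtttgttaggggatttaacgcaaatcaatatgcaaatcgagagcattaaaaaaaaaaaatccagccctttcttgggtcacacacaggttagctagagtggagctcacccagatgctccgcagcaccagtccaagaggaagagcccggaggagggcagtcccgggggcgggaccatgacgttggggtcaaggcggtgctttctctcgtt
Ldha: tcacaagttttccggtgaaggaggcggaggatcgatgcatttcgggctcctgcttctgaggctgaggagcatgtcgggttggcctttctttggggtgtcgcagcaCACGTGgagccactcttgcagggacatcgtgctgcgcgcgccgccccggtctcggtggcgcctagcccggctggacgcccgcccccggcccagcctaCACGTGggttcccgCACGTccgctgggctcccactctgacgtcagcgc

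Slc2a1 has motifs that start 61 and 36 bases before its start site, Pfkfb4 has 1 at 117 bases and Egln3 has 1 at 229 bases. Ldha has matches at 145, 144, 48, 47 and 34 bases, where neighbouring matches are the palindrome CACGTG read on both strands. A second start site of Ldha, whose window is not shown, has 1 match at 59 bases. Of 44 start sites of the 30 genes, 36 (81.8%) had at least 1 motif in the window and 22 (50.0%) had 2 or more. Over all 32851 promoters these shares were 38.6% and 16.7%, and over the 7355 promoters of genes with a mean of at least 10 FPKM they were 58.3% and 28.8%. Windows of the same gene can overlap and share motifs, as for Eno1 and Aldoa. Counted by gene, 28 of 30 had a motif, against 11226 of all 27025 genes. Of genes with a mean of at least 10 FPKM, 3694 of 5720 had one. A match is a description of the letters in the window and not evidence of binding. Almost all of the 30 genes carried the motif, and its part in the differences between media was not tested.

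The FPKM of the 4 libraries summed to between 672304 and 749264, and 12529 to 12959 genes reached 1 FPKM in a library. Relative depth, read from the smallest steps between low values, was 0.776 (+ND), 0.985 (+NF) and 1.03 (+NFD), with +N set to 1. Ratios between media are given as log2((FPKM + 1)/(FPKM + 1)), which understates the difference of low genes, over genes at 1 FPKM or more in the higher library. A ratio of 2-fold or more was counted as a difference. The median over all genes was not 0: it was 0.10 for +ND against +N, 0.12 for +NF against +N and 0.18 for +NFD against +N. Of the epithelial markers Krt5, Krt14, Trp63, Cdh1, Epcam, Itgb4 and Krt15, 7 of 7 reached 1 FPKM in every library, and Krt14 was highest, at 5530 to 12652 FPKM. Endothelial markers summed to 0.243 to 0.531 FPKM, 0 of 8 reached 1 FPKM in any library and Cldn5 was listed at 0 in all 4. Macrophage markers summed to 685, 567, 491 and 435 FPKM in +N, +ND, +NF and +NFD. Lyz2, the highest, made up most of this sum, at 528, 408, 373 and 288 FPKM. Counted by gene, 8 of 10 macrophage markers were lowest in +NF and 1 was lowest in +NFD. Of the fibroblast markers, 10 of 10 were highest in +NFD.

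**Figure D1:**
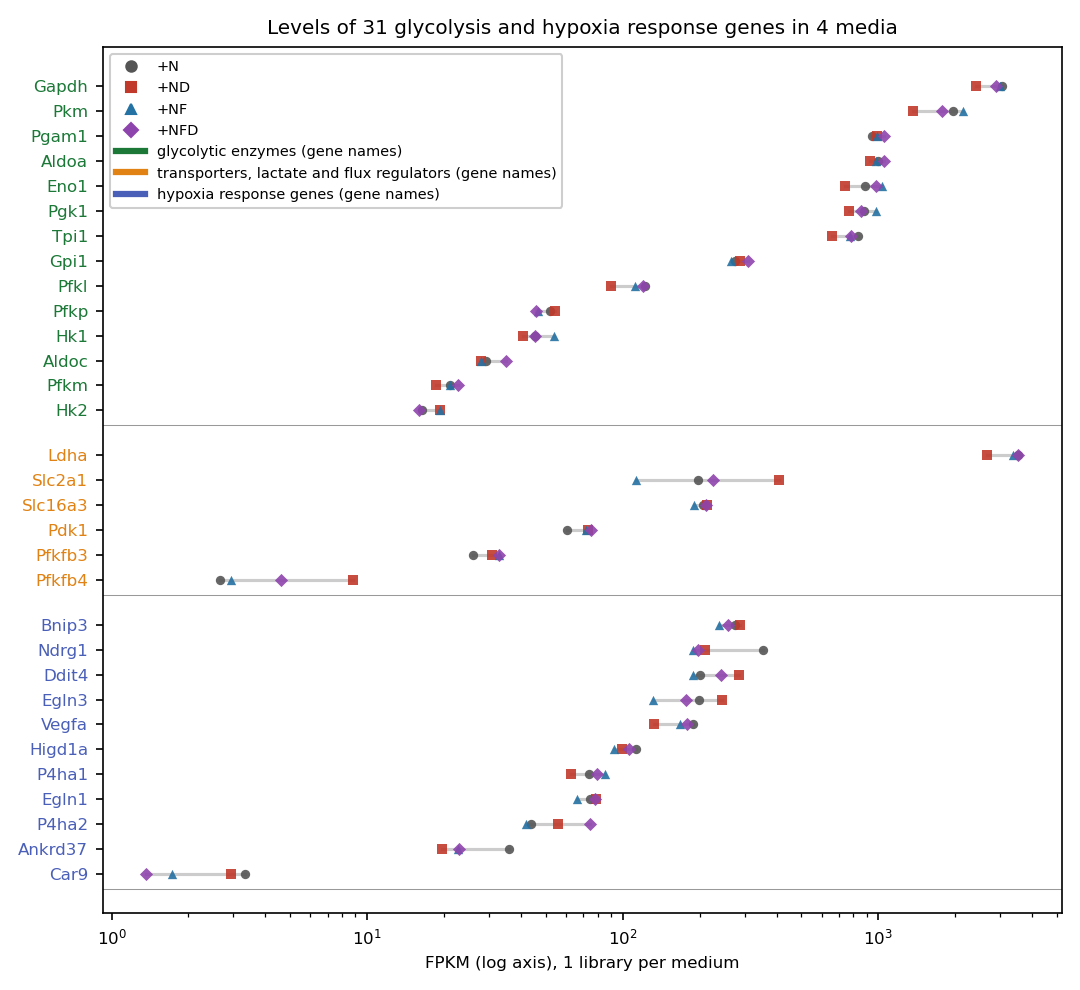
FPKM of the 31 genes on a log axis, with 1 point per medium and genes ordered by mean level within 3 groups (gene names coloured by group). The points of most genes lie close together, and Slc2a1 and Pfkfb4 are the genes with the widest range.

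Levels spanned 3 orders of magnitude. Ldha, which makes lactate, and Gapdh, the dehydrogenase that opens the energy-yielding phase of the pathway, were the most abundant, at 2674 to 3536 and 2421 to 3061 FPKM. Car9, a carbonic anhydrase of the cell surface that is classically induced by hypoxia, was the least abundant, at 1.37 to 3.31 FPKM. Between the highest and the lowest of the 4 libraries, 2 of the 31 genes, Slc2a1 and Pfkfb4, differed at least 2-fold, where 19.8% of all 13748 genes did, all on the log2(FPKM + 1) scale. In plain FPKM, Car9 also differed 2.42-fold. The median of this highest over lowest ratio was 1.28-fold for the 31 genes, 1.47-fold for all genes and 1.41-fold for the 7470 genes with a mean of at least 10 FPKM. By group it was 1.25-fold for the enzymes, 1.29-fold for the transport and flux genes and 1.51-fold for the hypoxia response genes.

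**Figure D2:**
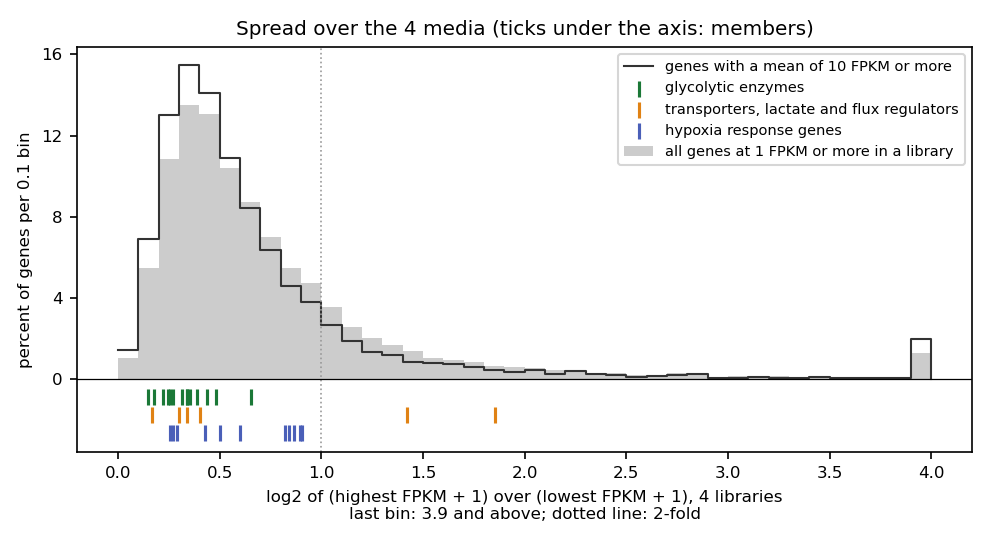
Percent of genes in bins of the log2 ratio of the highest over the lowest library, for all genes (grey) and for genes with a mean of at least 10 FPKM (line), with a tick under the axis for each of the 31 genes by group. The ticks of the 14 enzymes all lie left of the dotted 2-fold line, and only Slc2a1 and Pfkfb4 lie right of it.

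Slc2a1 encodes GLUT1, the transporter that brings glucose into most epithelial cells. It had 197 FPKM (+N), 410 (+ND), 113 (+NF) and 226 (+NFD). Both DBZ media were thus above the medium without DBZ on the same background, and both FGF10 media were below their counterparts without FGF10. The log2 ratio of DBZ was 1.05 without FGF10 and 1.00 with it, the latter a value of 0.997 just under the 2-fold limit. The ratio of FGF10 was -0.80 without DBZ and -0.86 with it, and +NFD stood 0.20 above +N. Under upper-quartile scaling or centring on the median of all genes the ratio of +ND to +N was 0.97 or 0.95, under the 2-fold limit. Slc2a1 made up 98.0% to 99.2% of the summed FPKM of Slc2a1, Slc2a3 and Slc2a4 in every medium. The antisense genes Gm12867 and Gm12868, which overlap Slc2a1, had at most 2.47 FPKM.

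Pfkfb4 and Pfkfb3 encode bifunctional enzymes that set the level of fructose 2,6-bisphosphate, the main activator of phosphofructokinase. Pfkfb4 had 2.66 FPKM (+N), 8.83 (+ND), 2.92 (+NF) and 4.59 (+NFD). The 2 DBZ media were the 2 highest, and the log2 ratio of DBZ was 1.42 without FGF10 and 0.51 with it. FGF10 gave 0.10 without DBZ and -0.81 with it. The value in +N rests on about 262 fragments, with a 95% counting interval of 2.35 to 3.01 FPKM that covers counting error only. Pfkfb3 was lowest in +N at 25.9 FPKM and lay between 30.9 and 33.0 in the other 3 media. It was the most abundant of the 4 Pfkfb genes, with 58.1% to 64.5% of their FPKM, while the share of Pfkfb4 was 6.43% (+N), 16.6% (+ND), 5.72% (+NF) and 8.74% (+NFD).

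Of lactate formation and export, Ldha and Slc16a3 varied less. A second lactate transporter gene, Slc16a1, is described below and varied more, with a log2 ratio of 1.77 in +ND against +N. Ldha had 3532 FPKM (+N), 2674 (+ND), 3377 (+NF) and 3536 (+NFD), so +ND stood apart from 3 libraries of nearly equal level, at a log2 ratio of -0.40 to +N. Ldha accounted for 99.7% to 99.8% of Ldha and Ldhb together. Slc16a3, which encodes the lactate exporter MCT4, had 206, 215, 191 and 212 FPKM in the same order. Pdk1, a kinase that shuts pyruvate out of mitochondrial oxidation by inhibiting pyruvate dehydrogenase, was lowest in +N at 60.7 FPKM and had 72.9, 72.1 and 75.0 in +ND, +NF and +NFD.

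**Figure D3:**
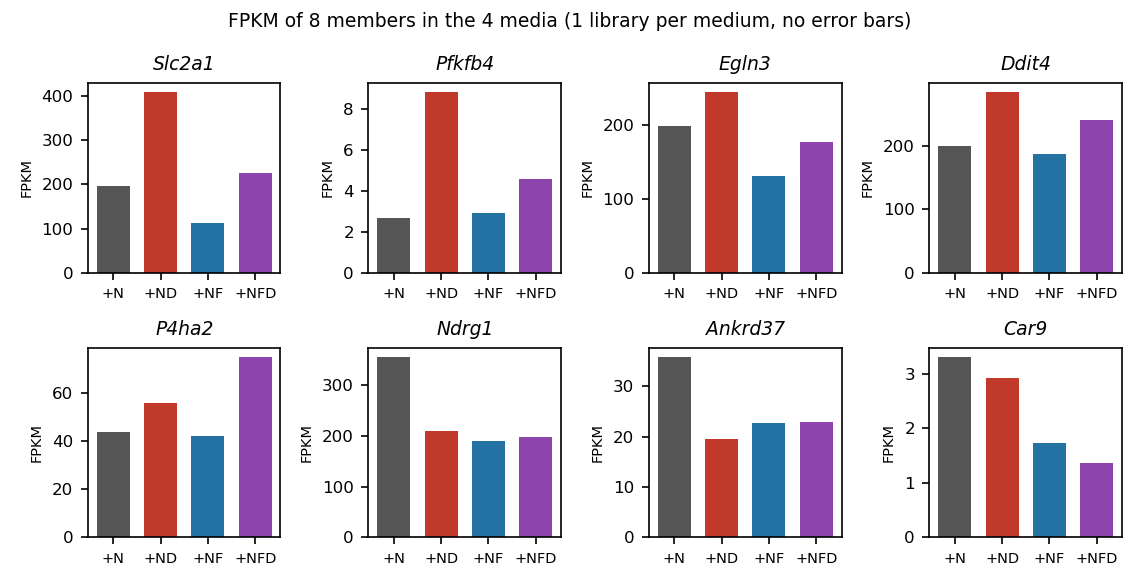
FPKM of 8 of the genes in each medium, with bars from 0 and a separate axis per gene. Slc2a1, Egln3 and Ddit4 are highest in +ND and lowest in +NF, Ndrg1 and Ankrd37 are highest in +N, and P4ha2 is highest in +NFD.

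Among the 14 glycolytic enzymes none differed 2-fold in any comparison, and the most frequent pattern was a lowest level in +ND. This was so for 10 of 14 enzymes (71.4%), namely Hk1, Pfkl, Pfkm, Aldoa, Aldoc, Tpi1, Gapdh, Pgk1, Eno1 and Pkm, where 31.7% of all genes were lowest in +ND. The summed FPKM of the 14 enzymes was 10135 (+N), 8418 (+ND), 10451 (+NF) and 9993 (+NFD). Their median log2 ratio was -0.16 for +ND against +N, with 10 of 14 lower, and 0.21 for +NFD against +ND, with 12 of 14 higher. The corresponding medians of all genes were 0.10 and 0.09, with 58.2% and 59.0% of all genes higher. Upper-quartile scaling and centring each left 9 of the 14 lowest in +ND. The count of lowest libraries was chosen after the values were seen, and it uses order alone, whatever the size of the difference. The summed FPKM of the 7 epithelial markers was also lowest in +ND, at 19811, 11041, 15674 and 13147 in +N, +ND, +NF and +NFD, and its part in the lower enzyme levels was not tested. Krt14 and Krt5 made up most of this sum. Of the 7 markers 4 were lowest in +ND, while Trp63 had 88.5, 166, 100 and 124 FPKM and was highest in +ND. Counted by gene, a lowest level in +ND was less frequent among other genes of the pathway. Of 21 other glycolysis and gluconeogenesis genes at 1 FPKM or more in a library, 5 (23.8%) were lowest in +ND. In +ND against +N, 14 of these 21 were higher, with a median log2 ratio of 0.25. The summed FPKM of all 33 genes of that list was nonetheless lowest in +ND. It was 946, 701, 1092 and 1010 in +N, +ND, +NF and +NFD. Bsg made up most of this sum, at 789, 497, 905 and 792 FPKM.

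The upper phase of the pathway spends ATP to phosphorylate and split glucose. Hexokinase, which traps glucose in the cell, was represented mainly by Hk1, with 45.5 FPKM (+N), 40.7 (+ND), 53.7 (+NF) and 45.2 (+NFD), and by Hk2, with 16.4, 19.2, 19.2 and 15.9. Hk1 held 66.1% to 71.5% of the hexokinase FPKM. Gpi1, the isomerase of glucose 6-phosphate, had 276, 289, 266 and 310 FPKM, a range narrower than that of most other members.

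Phosphofructokinase carries out the committed step and has subunits of 3 types. The liver type Pfkl had 122 FPKM (+N), 89.8 (+ND), 111 (+NF) and 120 (+NFD). The platelet type Pfkp had 51.8, 54.4, 46.8 and 45.8, and the muscle type Pfkm had 21.1, 18.6, 21.1 and 22.6. The share of Pfkl was 55.2% in +ND and 62.1% to 63.7% in the other media, and that of Pfkp was 33.4% in +ND and 24.3% to 26.6% elsewhere. Pfkm overlaps Senp1 and Pfkp overlaps Pitrm1 on the opposite strand, at 14.6 to 17.1 and 11.2 to 14.8 FPKM. The strand setting of the quantification is not given in the sources used here, so fragments in such overlaps could not be assigned to a strand.

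Aldolase, which splits the 6-carbon sugar, was almost wholly Aldoa, with 998 FPKM (+N), 931 (+ND), 984 (+NF) and 1052 (+NFD), or 96.8% to 97.2% of the aldolase FPKM. Aldoc was at 27.9 to 29.1 FPKM in +N, +ND and +NF and at 34.9 in +NFD. Tpi1, which interconverts the triose phosphates, had 836, 661, 775 and 782 FPKM.

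In the lower phase, which yields ATP, Gapdh had 3061 FPKM (+N), 2421 (+ND), 2986 (+NF) and 2902 (+NFD). Gapdh is a common reference gene, and its FPKM in +ND was 0.791 times that in +N. Pgk1, the first ATP-forming kinase, had 883, 767, 981 and 860 FPKM, and Pgam1, the mutase that follows, had 947, 992, 992 and 1050. Pgam1 had the narrowest range of the 31 genes.

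Eno1, the main enolase, had 885 FPKM (+N), 740 (+ND), 1032 (+NF) and 983 (+NFD), and was 99.1% to 99.6% of the enolase FPKM. Pkm, the pyruvate kinase of the final step, had 1961, 1367, 2155 and 1770 FPKM. Pkm had the widest range of the enzymes, with a log2 ratio of DBZ of -0.52 without FGF10 and -0.28 with it. Its value joins the M1 and M2 splice forms. Among the 31 genes, 10, including Gapdh with 87, Pgk1 and Pgam1, have copies of at least 95% identity over 200 nt elsewhere in the genome. The copies were listed at 0.678% to 0.862% of the level of Gapdh, 2.79% to 4.32% of Pgk1 and 7.56% to 13.8% of Pgam1. When these were added, Pgam1 was also lowest in +ND.

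**Figure D4:**
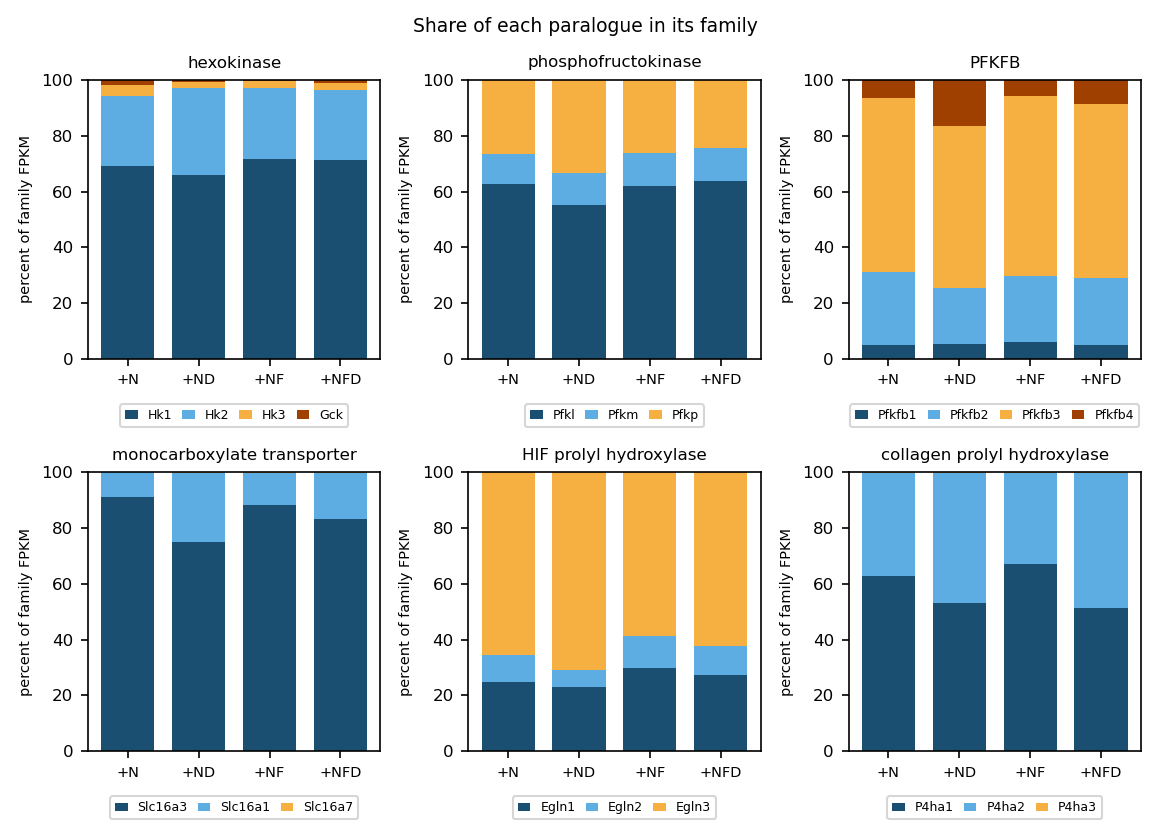
Percent of the summed FPKM of 6 gene families contributed by each paralogue in the 4 media (stacked bars, 1 library each). The shares of Pfkp, Pfkfb4, Slc16a1 and Egln3 are highest in +ND, and P4ha2 makes up more of its family in both DBZ media.

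The 11 hypoxia response genes did not differ 2-fold in any comparison on the log2(FPKM + 1) scale either, and here +NF was most often the lowest library. This held for 7 of 11 genes (63.6%), namely Bnip3, Ddit4, P4ha2, Egln1, Egln3, Higd1a and Ndrg1, against 15.2% of all genes. The count was 7 under upper-quartile scaling and centring too. It was likewise chosen after the values were seen and uses order alone. The FPKM of the 11 genes summed to 1561 (+N), 1480 (+ND), 1225 (+NF) and 1415 (+NFD). Against +N, 10 of 11 were lower in +NF, with a median log2 ratio of -0.20 where that of all genes was 0.12, and 65.7% of all genes were higher in +NF. In +NFD against +NF, 9 of 11 were higher, with a median of 0.11, where 57.2% of all genes were higher with a median of 0.05. Macrophage and fibroblast markers were likewise lowest in +NF for 8 of 10 genes each, and their part in the hypoxia gene values was not tested. The preference for +NF was weaker among 30 other hypoxia-inducible genes at 1 FPKM or more in a library. The lowest library was +NF for 10 of them (33.3%), +ND for another 10, +N for 9 and +NFD for 1. Of 29 such genes compared between +NF and +N, 18 were lower in +NF, with a median log2 ratio of -0.07.

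Egln1 and Egln3 encode HIF prolyl hydroxylases, the oxygen sensors of the pathway, and Egln3 is itself a strong HIF target. Egln3 had 198 FPKM (+N), 244 (+ND), 131 (+NF) and 177 (+NFD). Like Slc2a1 it was higher with DBZ on both backgrounds (log2 ratios 0.30 and 0.43) and lower with FGF10 on both (-0.59 and -0.46). Egln1 had 74.7, 79.0, 66.0 and 77.8 FPKM. Egln3 made up 65.7%, 70.9%, 58.8% and 62.2% of the FPKM of the 3 Egln genes.

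Ddit4 encodes REDD1, an inhibitor of mTORC1 that hypoxia and other stresses induce. It had 201 FPKM (+N), 285 (+ND), 188 (+NF) and 242 (+NFD), with both DBZ media above both others and DBZ ratios of 0.51 and 0.36. Bnip3, a mitophagy receptor, had 274, 288, 239 and 258 FPKM, again highest in +ND and lowest in +NF. In all, 6 of the 31 genes (19.4%), Slc2a1, Slc16a3, Bnip3, Ddit4, Egln1 and Egln3, were higher with DBZ and lower with FGF10 on both backgrounds, where 7.83% of all genes had these 4 directions. The reverse pattern, lower with DBZ and higher with FGF10 on both backgrounds, was found in 5 of 31 (16.1%), Hk1, Pgk1, Eno1, Pkm and P4ha1, against 11.2% of all genes. Higher with DBZ and with FGF10 on both backgrounds were 2 of 31 (6.45%), Pgam1 and Pdk1, against 16.5% of all genes. Lower with both was 1 of 31 (3.23%), Car9, against 4.23% of all genes. These counts use direction alone, and the differences of Slc16a3, Egln1 and Bnip3 were small.

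P4ha1 and P4ha2 encode the catalytic subunits of collagen prolyl 4-hydroxylase. P4ha1 had 74.0 FPKM (+N), 63.0 (+ND), 85.0 (+NF) and 79.4 (+NFD). P4ha2 had 43.7, 55.7, 41.8 and 74.8, so the +NFD library stood above the other 3, with a log2 ratio of 0.82 to +NF and 0.76 to +N. Its share of the P4ha FPKM was 37.0% (+N), 46.8% (+ND), 32.9% (+NF) and 48.3% (+NFD). The summed FPKM of 10 fibroblast markers, led by Postn and Col1a1, was 272, 251, 171 and 657 in the same order. It was thus also highest in +NFD and lowest in +NF, and its part in the P4ha2 difference was not tested.

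Ndrg1, a hypoxia-induced gene of differentiating epithelium, and Ankrd37, an ankyrin repeat gene, had their highest level in +N. Ndrg1 had 355 FPKM (+N), 210 (+ND), 189 (+NF) and 197 (+NFD), so the 3 media with DBZ or FGF10 lay close together and well below +N. The log2 ratio to +N was -0.75, -0.91 and -0.84 in +ND, +NF and +NFD, and it reached -1.02 for +NF after centring on the median of all genes. The antisense gene Gm17035, which overlaps Ndrg1, was listed at 185, 92.5, 93.1 and 102 FPKM, in nearly the same proportions. Fragments of these overlapping genes may not have been told apart, since the strand setting is not given.

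Ankrd37 had 35.9 FPKM (+N), 19.6 (+ND), 22.8 (+NF) and 23.0 (+NFD), with log2 ratios to +N of -0.84, -0.63 and -0.62. Its value in +ND rests on about 397 fragments (95% counting interval 17.7 to 21.6 FPKM). It overlaps Ufsp2 on the opposite strand, which had 40.9 to 53.6 FPKM and was highest in +ND. Higd1a, a mitochondrial protein of the respiratory chain, had 113, 99.3, 92.2 and 106 FPKM and was highest in +N as well.

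Vegfa, the angiogenic growth factor, had 189 FPKM (+N), 133 (+ND), 168 (+NF) and 179 (+NFD), the same order of media as Ldha except between +N and +NFD, with +ND the lowest. Car9 had 3.31, 2.93, 1.73 and 1.37 FPKM, so both FGF10 media were below both others. The ratio of FGF10 was -0.66 without DBZ and -0.73 with it on the log2 scale, and the value in +NFD rests on about 81 fragments (95% counting interval 1.09 to 1.71 FPKM). In plain FPKM, Car9 in +NFD was 0.413 times its level in +N and 0.467 times that in +ND, past the 2-fold limit that it did not reach after 1 was added to each value. The antisense gene Gm12454, which overlaps Car9, had 1.02, 1.07, 0.509 and 1.04 FPKM in +N, +ND, +NF and +NFD, nearest to the level of Car9 in +NFD.

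**Figure D5:**
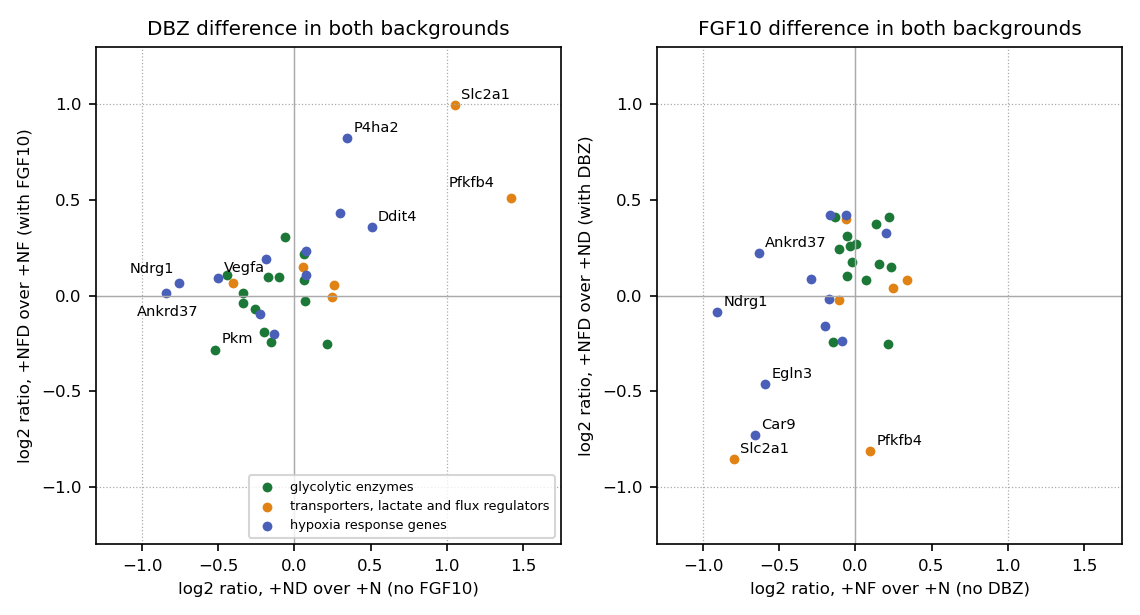
Log2 ratios of the 31 genes for DBZ without against with FGF10 (left) and for FGF10 without against with DBZ (right), coloured by group, with dotted lines at 2-fold and names for genes with a ratio of 0.5 or more in size. Slc2a1 lies at 1.05 and 1.00 in the left panel and at -0.80 and -0.86 in the right panel, and most enzymes lie near the centre.

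By comparison, 2 of 31 genes, Slc2a1 and Pfkfb4, were at least 2-fold higher in +ND than in +N and 0 were 2-fold lower, where 5.88% of all genes were higher and 5.29% lower. The median log2 ratio of the 31 genes was -0.10, against 0.10 for all genes. In +NF against +N, 0 of 31 were 2-fold different in either direction, where 2.76% of all genes were higher and 2.44% lower, and the medians were -0.06 and 0.12. In +NFD against +N, 0 of 31 differed 2-fold, with 5.85% of all genes higher and 4.03% lower, and the medians were 0.0015 and 0.18. In +NFD against +NF, 0 of 31 differed 2-fold, with 3.72% of all genes higher and 2.69% lower, and the medians were 0.08 and 0.05. In +NFD against +ND, 0 of 31 differed 2-fold, with 3.39% of all genes higher and 3.11% lower, and the medians were 0.10 and 0.09. The 31 genes thus lay 0.20, 0.18 and 0.18 below the median of all genes in +ND, +NF and +NFD relative to +N. These 3 comparisons share the +N library.

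The DBZ difference had the same direction without and with FGF10 in 18 of 31 genes (58.1%), 11 higher and 7 lower, where 61.6% of all genes did. For the FGF10 difference without and with DBZ the count was also 18 of 31, 9 higher and 9 lower, against 55.6% of all genes. The compared pairs of libraries share none. These shares were near those of all genes.

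Of the HIF subunits and oxygen sensors, Hif1a, the oxygen-regulated subunit, had 215 FPKM (+N), 301 (+ND), 147 (+NF) and 149 (+NFD). It was highest in +ND, as Slc2a1 was, but did not differ between +NF and +NFD by more than 0.02 on the log2 scale. Hif1a was the 1 of 7 genes of this list above the filter that was 2-fold lower in +NFD than in +ND. Its log2 ratio of -1.01 was just past the limit, and 3.11% of all genes were 2-fold lower. HIF-1α is regulated mainly by protein stability, which FPKM does not measure. Epas1, which encodes HIF-2α, had 11.2, 7.01, 6.02 and 5.44 FPKM and was highest in +N. Arnt, the constitutive partner, was at 17.2 to 19.2 FPKM. Vhl, which directs hydroxylated HIF to degradation, was at 10.1 to 13.8, Hif1an, which blocks its coactivators, at 11.1 to 12.5, Egln2 at 21.2 to 29.6 and Cited2, a HIF-induced competitor for coactivators, at 26.9 to 41.5. Hif3a and Arnt2 were under 1 FPKM.

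Of 32 other hypoxia-inducible genes, 29 passed the filter in +ND against +N, of which 4 were 2-fold higher (Ampd3, Hmox1, Fam162a and Tmem45a) and 1, Angptl4, was 2-fold lower, where 5.88% and 5.29% of all genes were. In +NFD against +N, 1 (Ampd3) was higher and 1 (Angptl4) lower of 30, where 5.85% and 4.03% of all genes were. In +NF against +N it was 0 in each direction of 29, and in +NFD against +NF it was 2 higher (Adm and Hmox1) and 0 lower of 30, against 3.72% and 2.69% of all genes. In +NFD against +ND it was 0 of 30 in each direction. Hmox1, the haem oxygenase induced by many stresses, was the 1 gene of the list past 2-fold with DBZ on both backgrounds, at 35.3, 74.1, 27.8 and 57.5 FPKM. Fam162a, a mitochondrial HIF target chosen after its values were seen, had 841, 1714, 548 and 1004 FPKM, in the order of media found for Slc2a1.

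Of 33 other glycolysis and gluconeogenesis genes, 21 passed the filter in +ND against +N, where 1 was 2-fold higher (Slc16a1) and 2 were 2-fold lower (Ldhd and Fbp2), beside 5.88% and 5.29% of all genes. In +NFD against +N it was 2 higher (Eno2 and Slc16a1) and 2 lower (Ldhd and Fbp2) of 21, beside 5.85% and 4.03%. In +NF against +N it was 0 higher and 1 lower (Fbp2) of 19, in +NFD against +NF 1 higher (Eno2) and 1 lower (Ldhd) of 20, and in +NFD against +ND 0 of 20 in each direction. Ldhd, the mitochondrial D-lactate dehydrogenase, was 2-fold lower with DBZ on both backgrounds, at 23.5, 4.77, 24.5 and 8.81 FPKM. Slc16a1, which encodes the lactate transporter MCT1 and was chosen after its values were seen, had 20.1, 70.8, 24.9 and 41.4 FPKM. Its share of the FPKM of Slc16a1, Slc16a3 and Slc16a7 was 8.88%, 24.7%, 11.5% and 16.3%, with the remainder almost wholly Slc16a3.

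Of 12 genes of pyruvate entry to mitochondria, Pdk4, a kinase that acts like Pdk1, was 2-fold higher with DBZ and with FGF10 on both backgrounds, at 0.705, 3.17, 2.62 and 8.93 FPKM. Its value in +N was thus below 1 FPKM. It was 0.778% to 7.39% of the Pdk FPKM, of which Pdk1 held 62.1% to 67.2%. None of the other 11 differed 2-fold in these comparisons. The 7 pentose phosphate pathway genes, which branch from glycolysis at glucose 6-phosphate, had 0 genes 2-fold different in any comparison. Over all genes, 2.76% to 5.88% were 2-fold higher and 2.44% to 5.29% were 2-fold lower, depending on the comparison.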

How the data were processed

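RNA of DEOs in 4 media was measured with 1 library each, prepared with a TruSeq RNA kit and sequenced on an Illumina HiSeq instrument. The submitters' processing notes name FastQC 0.11.9, Trim Galore 0.6.5, TopHat2 2.1.1 and the build GRCm38, and the methods of the study name Cufflinks. The authors deposited FPKM values, in which transcript length and library size are divided out. The annotation release, strand setting and read totals are not given in the sources used here.

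Entries with the same symbol were summed (123 symbols). Ratios were log2((FPKM + 1)/(FPKM + 1)) over genes with at least 1 FPKM in the higher library, with 2-fold as limit and no test. Relative depth and approximate fragment numbers came from the steps of FPKM multiplied by length over 8409 genes with a single transcript of at least 1000 nt in GENCODE M21, whose identifiers matched 47080 of 47493 entries. Of the 31 genes, 22 lay at the position listed in that release. Copies were searched with BLAST 2.17.0. Promoter windows came from RefSeq tables on GRCm38.p6. For 40 of 44 start sites the bases after the start lay in an annotated transcript of the gene. The calculations were tested on simulated data. The 31 genes and all other lists were chosen with earlier results of these data known. A few genes of the lists are not reported here and were left out of their lists. All 31 genes and all HIF subunits and oxygen sensors were named, from other lists the genes 2-fold different in the same direction in both comparisons of a factor, and of the markers those with the highest level. Genes named outside this rule were chosen after their values were seen. Alternatives were a pseudocount of 0.1, no filter, a filter at 5 FPKM, upper-quartile scaling, centring on the median, and the highest entry per symbol. Software was Python 3.11.15, pandas 2.3.3, numpy 2.4.6, matplotlib 3.10.9 and scipy 1.17.1.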

Additional observations from a re-analysis of the deposited data

Results flagged for a closer look

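The median log2 ratio of DBZ over the 11 hypoxia response genes was -0.13 without FGF10 and 0.11 with it, of opposite sign on the 2 backgrounds. The medians of all genes were 0.10 and 0.05. Relative to these, the hypoxia response genes lay at -0.24 and 0.06, the latter under the limit of 0.1 used for a median. Hk2 had a DBZ ratio of 0.22 without FGF10 and -0.25 with it, and an FGF10 ratio of 0.21 without DBZ and -0.26 with it, so that it was at 19.2 FPKM in both +ND and +NF, at 16.4 in +N and at 15.9 in +NFD. Ankrd37 had an FGF10 ratio of -0.63 without DBZ and 0.22 with it. These values were picked out because the same contrast went in opposite directions on the 2 backgrounds by at least 0.2 for a gene, or 0.1 for a median, on each side. With 1 library per medium the differences were not tested.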

How the results depend on the processing

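For 19 counts and medians, 7 alternatives gave 133 values, of which 121 stayed within 0.1 on the log2 scale or, for counts, within 1.5 times. Removing the filter and taking the highest entry per symbol could not change any of them. All 31 genes reached 1 FPKM in every library and have 1 entry each. The pseudocount could not change the counts of shared direction, and neither it nor the filters could change the counts of lowest libraries. The number that stayed thus overstates the stability. Adding the FPKM of near copies elsewhere in the genome was an alternative chosen after seeing the data, as were the counts of lowest libraries. The number of genes 2-fold higher in +ND than in +N was 1 in place of 2 under upper-quartile scaling and 1 under centring, which left out Slc2a1. Genes 2-fold lower in +NF than in +N numbered 1 under upper-quartile scaling and 1 under centring (Ndrg1). Genes 2-fold lower in +NFD than in +N numbered 1 with a pseudocount of 0.1 (Car9) and 2 under centring (Car9 and Ndrg1). With a pseudocount of 0.1, 1 gene (Slc2a1) was 2-fold higher in +NFD than in +NF and 1 gene (Car9) was 2-fold lower in +NFD than in +ND. Medians relative to +N were -0.20 in +ND and -0.18 in +NF under centring, and -0.15 and -0.18 in +NFD under upper-quartile scaling and centring. Centring moves these values by construction. None of 23 gene ratios of at least 0.5 in size changed sign. No paired analysis was possible because each medium has 1 library, and for the same reason no library could be left out. Depth limits Car9 and Pfkfb4 most.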
